A study of Mus musculus with 12 samples.

Results

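The proteasome genes of the mouse were examined in 3 populations of fetal liver blood cells, on 12 microarrays. Genes were taken as members if their symbol in the platform annotation starts with Psm, a letter from a to g and a number, and if a probe set with 1 gene symbol measured them. This gave 50 of the 19937 genes measured: 8 of the alpha ring, 7 of the constitutive beta ring, 4 beta subunits of the immunoproteasome and thymoproteasome, 6 ATPases and 11 other subunits of the regulatory particle, 7 assembly chaperones, 5 alternative activators and inhibitors, and 2 that the symbol rule caught although they are no subunits. A probe set that names both Psme2b and Psme2 was left out. Cells came from fetal livers at E14.5, with 4 biological replicates per population. MEG are megakaryocytes that were grown in culture from KIT-positive progenitors and enriched on CD41 beads, so unlike the other populations they are cultured cells. ERY are erythroblasts taken directly from the liver on Ter119 beads. HSPC, labelled as hematopoietic stem cells, are Sca1-positive cells sorted after removal of cells with lineage antigens, and thus a mixture of stem and progenitor cells.

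The proteasome is the protease that degrades proteins tagged with ubiquitin. Its core particle is a stack of alpha and beta rings in which 3 beta subunits, encoded by Psmb5, Psmb6 and Psmb7, cut peptide bonds. Cells of the immune system, and other cells exposed to interferon, build in Psmb8, Psmb9 and Psmb10 instead, which changes the peptides made for MHC class I. The regulatory particle unfolds substrates and feeds them into the core, and alternative caps can take its place. In blood formation, maturing red cells rely on the ubiquitin system to remove proteins and organelles, and proteasome inhibitors are known to lower platelet counts.

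Promoter stretches are shown for the 6 members in which the results below are largest or run together, the 3 immunoproteasome subunits, the 2 subunits of the interferon-inducible cap and Psme4. Each runs from 80 bases before to 20 bases after a transcription start in RefSeq, build GRCm38.p6, 5′ to 3′ on the gene's strand. Capitals mark matches to the motifs searched.
Psmb8, chr17:34198115-34198214, plus strand: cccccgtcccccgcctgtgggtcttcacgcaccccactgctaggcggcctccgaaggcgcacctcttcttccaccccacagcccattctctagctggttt
Psmb9, chr17:34187311-34187410, minus strand: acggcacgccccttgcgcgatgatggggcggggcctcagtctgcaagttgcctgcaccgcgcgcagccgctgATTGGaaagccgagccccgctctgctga
Psmb10, chr8:105938373-105938472, minus strand: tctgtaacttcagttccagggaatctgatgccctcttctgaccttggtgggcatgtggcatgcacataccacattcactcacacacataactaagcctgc
Psme1, chr14:55578414-55578513, plus strand: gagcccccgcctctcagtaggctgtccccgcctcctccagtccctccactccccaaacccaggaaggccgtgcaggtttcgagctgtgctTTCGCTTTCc
Psme2, chr14:55591082-55591181, minus strand: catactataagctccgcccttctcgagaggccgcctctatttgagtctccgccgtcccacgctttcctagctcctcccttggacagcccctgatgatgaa
Psme4, chr11:30771695-30771794, plus strand: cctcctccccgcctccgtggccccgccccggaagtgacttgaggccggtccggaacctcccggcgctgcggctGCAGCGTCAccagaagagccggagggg

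The motifs were the antioxidant response element TGACNNNGC, the interferon element GAAANNGAA and the CCAAT box CCAAT, each searched on both strands in RefSeq windows of 300 bases, 250 before and 50 after the start. RefSeq windows were listed for 42 members, 46 windows in all. The capitals in Psme1 are an interferon element, those in Psme4 an antioxidant response element and those in Psmb9 a CCAAT box, each read on the other strand. In the stretches of Psmb8, Psmb10 and Psme2 these letters did not occur. Over whole windows, the antioxidant response element was in 6 of the 46 (13.0%), those of Psmb5, Psmb6, Psmc6, Psmd9, Psmd12 and Psme4, against 12.4% of the 32851 windows of all genes. The interferon element was in 7 of 46 (15.2%), those of Psmb3, Psmb4, Psmc2, Psmd4, Psmd9, Psme1 and Psmg4, against 8.56% of all windows. No window of Psmb8, Psmb9, Psmb10 or Psme2 held it. The CCAAT box was in 16 of 46 (34.8%), against 37.4%. These are matches of letters only, and the shares are given as a description. In RefSeq order on GRCm38.p6, Psmb9 and Psmb8 lie on chromosome 17 with only Tap1 between them, and Psme1 and Psme2 lie on chromosome 14 with only Emc9 between them.

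The purified populations carried their own markers. All 11 MEG markers measured, all 11 ERY markers and all 9 HSPC markers had their highest mean in the population they mark. Of the 9 HSPC markers, 8 were called lower in MEG and in ERY than in HSPC. Mecom was not called, and it read 5.25 to 5.89 in HSPC, below the pooled median of all probe sets, 6.16. Other cell types left traces. Hepatocyte markers were highest in ERY in 12 of 12 cases, with a log2 summed level of 9.90 to 11.10 on the MEG arrays, 14.40 to 15.20 on ERY and 12.46 to 14.07 on HSPC. Over all probe sets, the median of an array lay between 5.99 and 6.25 on the log2 scale, while the mean of the ribosomal protein genes was 10.08 to 10.23 on MEG arrays, 10.22 to 10.30 on ERY and 10.56 to 10.67 on HSPC. Replicates of ERY were close for the members, with a median SD of 0.12 against 0.14 for all genes. In MEG the median SD was 0.38 for the members and 0.28 for all genes, and in HSPC it was 0.25 and 0.26. Of the 50 members, 33 were lowest among MEG on array 1 and 15 on array 4, and 35 were highest on array 2. Among HSPC, 23 were lowest on array 1 and 23 on array 4. HSPC array 4 read more than 2-fold below array 1 for 10 of the 50 members and above it for 1, against 14.3% and 8.24% of all genes. Calls lost without these arrays are given beside the results.

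A gene was called changed if limma's adjusted p was under 0.05, that is FDR below 5%, and the change was above 2-fold. Of the 50 members, 18 (36%) were called in at least 1 of the 3 comparisons, against 32.9% of all genes, and 32 in none. In MEG against HSPC, 1 member was higher, against 8.77% of all genes, and 9 were lower (18%), against 11.4% of all genes. In ERY against HSPC, 6 were higher (12%), against 8.35% of all genes, and 7 were lower (14%), against 12.3%. In MEG against ERY, 2 were higher (4.0%), against 8.75%, and 4 were lower (8.0%), against 7.77%. With the adjusted p alone and no limit on fold, MEG had 2 members above HSPC and 21 below, against 13.2% and 20.7% of all genes. By the same rule ERY had 8 members above HSPC and 15 below (12.6% and 20.1% of all genes), and MEG had 3 above ERY and 13 below (12.7% and 13.1%). The median change of the members was -0.40 log2 units in MEG against HSPC (all genes, -0.02), -0.04 in ERY against HSPC (all genes, 0.03), and -0.28 in MEG against ERY (all genes, -0.02). The comparisons with HSPC share the same 4 HSPC arrays, and all 3 come from 1 fit over the 12 arrays. Centring the arrays on 67 ribosomal protein genes instead raised the median of all genes by 0.48 in MEG against HSPC, 0.36 in ERY against HSPC and 0.12 in MEG against ERY. It put the members' medians at 0.09, 0.32 and -0.16, so the sign of the first 2 depends on the scale.

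**Figure D1:**
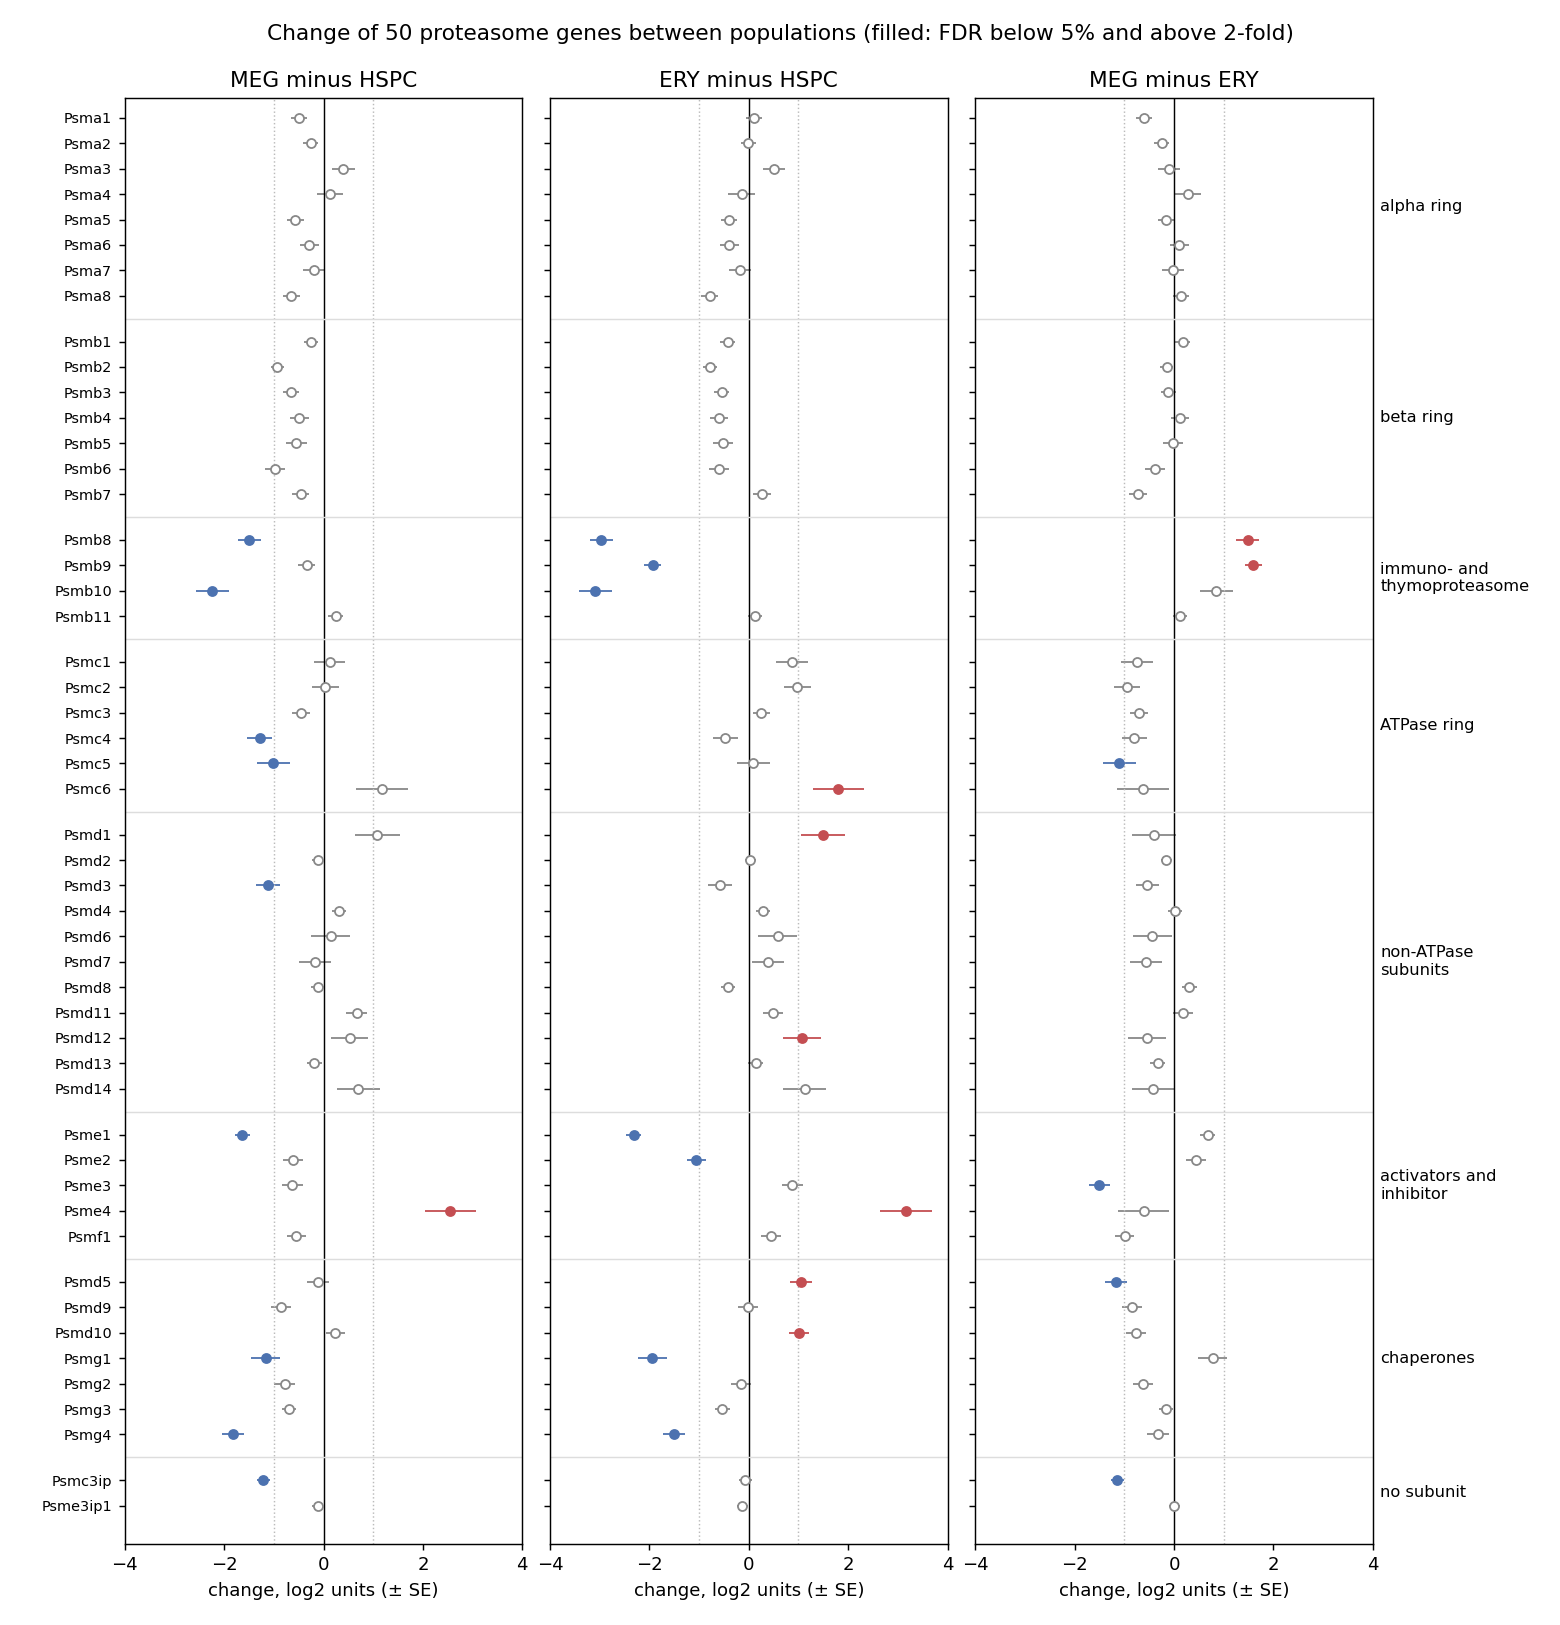
Log2 change with its standard error (x axis) for each of the 50 members (y axis, ordered by role) in MEG minus HSPC, ERY minus HSPC and MEG minus ERY; filled points are called at FDR below 5% and above 2-fold, red higher and blue lower, and dotted lines mark 2-fold. No gene of the alpha ring or the constitutive beta ring is filled in any panel, while Psmb8, Psmb10 and Psme1 lie far to the left and Psme4 far to the right in both comparisons with HSPC.

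The subunits of the immunoproteasome included the members that fell most. Psmb10, Psmb8 and Psmb9, the inducible catalytic subunits, were 8.49-fold, 7.85-fold and 3.83-fold lower in ERY than in HSPC. In MEG, Psmb10 and Psmb8 were 4.72-fold and 2.82-fold lower than in HSPC, whereas the change of Psmb9 was -0.34 and did not pass. Psmb8 and Psmb9 were 2.79-fold and 3.02-fold higher in MEG than in ERY.

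Psmb8, which takes the place of Psmb5, read 7.50, 7.55, 8.33 and 7.24 on the MEG arrays, 5.82, 6.55, 6.07 and 6.27 on the ERY arrays and 8.88, 9.07, 9.28 and 9.37 on the HSPC arrays (RMA, log2). The 3 populations did not overlap, with ERY lowest and HSPC highest. Its change was -1.49 ± 0.23 (SE) in MEG against HSPC (adjusted p = 0.000322, limma), -2.97 ± 0.23 in ERY against HSPC (adjusted p = 1.02e-06) and 1.48 ± 0.23 in MEG against ERY (adjusted p = 0.000313).

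Psmb9, the counterpart of Psmb6, read 8.85, 8.48, 8.90 and 8.67 in MEG, 7.04, 7.55, 6.94 and 6.98 in ERY and 8.89, 8.93, 9.18 and 9.28 in HSPC. Here MEG overlapped HSPC, and all 4 ERY arrays lay below both. The change was -0.34 ± 0.17 in MEG against HSPC (adjusted p = 0.135, limma), -1.94 ± 0.17 in ERY against HSPC (adjusted p = 2.31e-06) and 1.60 ± 0.17 in MEG against ERY (adjusted p = 1.02e-05). Centred on ribosomal protein genes, the change in MEG against HSPC was 0.14.

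Psmb10, the counterpart of Psmb7, read 8.02, 9.06, 9.12 and 8.10 in MEG, 7.83, 7.64, 7.49 and 7.97 in ERY and 9.89, 10.77, 11.28 and 11.32 in HSPC. All HSPC arrays lay above all others, and the lowest MEG array was just above the highest ERY array. The change was -2.24 ± 0.33 in MEG against HSPC (adjusted p = 0.000251, limma) and -3.09 ± 0.33 in ERY against HSPC (adjusted p = 1.62e-05). Between MEG and ERY it was 0.85 ± 0.33, which did not pass (adjusted p = 0.0873), although without MEG arrays 1 and 4 it was 1.36 and passed (adjusted p = 0.0153, limma).

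Against HSPC the constitutive partners moved less than the inducible subunits, except that in MEG Psmb6 fell more than Psmb9. Psmb5, which carries the chymotrypsin-like activity, read 11.53, 12.42, 12.32 and 11.79 in MEG, 11.90, 12.09, 12.02 and 12.14 in ERY and 12.19, 12.47, 12.78 and 12.80 in HSPC. Its changes of -0.55 in MEG and -0.52 in ERY against HSPC did not pass (adjusted p = 0.058 and 0.0722, limma). Psmb6, with the caspase-like activity, read 9.71, 10.18, 10.15 and 9.78 in MEG, 10.12, 10.41, 10.28 and 10.55 in ERY and 10.40, 10.84, 11.24 and 11.26 in HSPC. All MEG arrays lay below HSPC, at -0.98 ± 0.20 (adjusted p = 0.00217, limma), just under 2-fold. Psmb7, with the trypsin-like activity, read 9.46, 10.36, 10.27 and 9.94 in MEG, 10.69, 10.82, 10.79 and 10.66 in ERY and 10.52, 10.54, 10.47 and 10.36 in HSPC. Its 4 ERY arrays were the highest of the 12. Psmb7 was lower in MEG than in ERY, at -0.73 ± 0.17 (adjusted p = 0.00695, limma), short of 2-fold.

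Within each array, the inducible subunit was set against its constitutive partner, and only the shift of that log2 difference between populations was read, since levels of different probe sets cannot be compared. Psmb8 minus Psmb5 shifted by -0.95 in MEG and -2.45 in ERY against HSPC. Psmb10 minus Psmb7 shifted by -1.78 in MEG and -3.35 in ERY against HSPC. Psmb9 minus Psmb6 shifted by 0.64 in MEG and -1.34 in ERY against HSPC. The differences overlapped between populations only for Psmb9 minus Psmb6 in MEG and HSPC. Between MEG and ERY the shifts were 1.503, 1.98 and 1.57 for the pairs of Psmb8, Psmb9 and Psmb10, with no overlap. A shift can come from either gene of a pair. Psmb7 changed by -0.73 in MEG against ERY, which is part of the shift for Psmb10. In MEG against HSPC Psmb9 and Psmb6 both fell, and the shift is positive because Psmb6 fell more. All shifts are descriptions of the same values and carry no test.

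**Figure D2:**
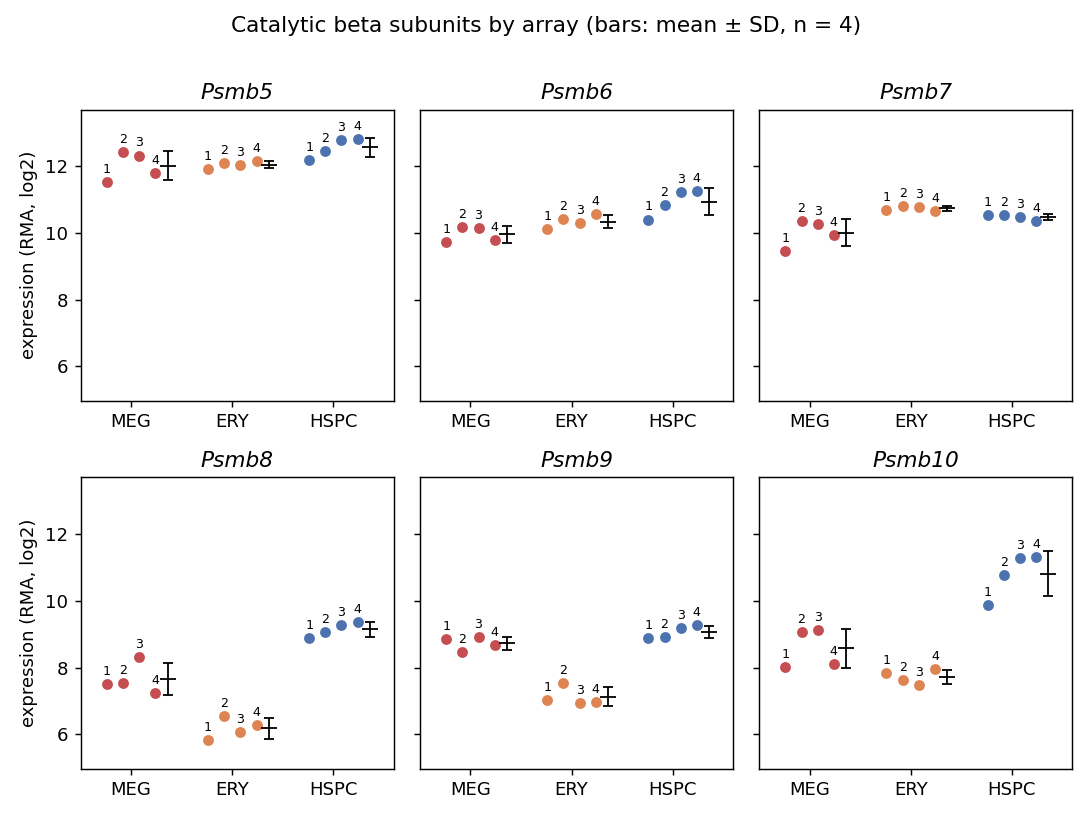
Expression (RMA, log2, y axis) of the constitutive catalytic subunits Psmb5, Psmb6 and Psmb7 in the upper row and of Psmb8, Psmb9 and Psmb10, which replace them, in the lower row, on each MEG, ERY and HSPC array; digits are replicate numbers and bars are mean ± SD, n = 4. In the lower row ERY sits lowest, between 5.82 and 7.97, and MEG reaches the HSPC level only for Psmb9.

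Psmb11, the thymoproteasome subunit known from thymic epithelium, read 6.03, 5.74, 5.44 and 5.90 in MEG, 5.48, 5.84, 5.62 and 5.69 in ERY and 5.55, 5.36, 5.51 and 5.70 in HSPC. These values lie below the pooled median of all probe sets, 6.16, and the populations overlapped. Its SD over the 12 arrays, 0.20, was among the 3 smallest of the members.

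Markers of immune cells differed between the same populations. The 10 lymphoid markers measured had a log2 summed level of 9.02 to 9.85 on the MEG arrays, 8.86 to 9.04 on ERY and 11.48 to 11.73 on HSPC, and 8 of them had their highest mean in HSPC. For the 7 myeloid granule markers the sums were 12.02 to 13.41 in MEG, 10.01 to 10.19 in ERY and 14.19 to 14.58 in HSPC. Macrophage markers ran the other way in ERY and were uneven in MEG, with sums of 11.20 to 13.10 in MEG, 12.02 to 12.95 in ERY and 11.58 to 11.98 in HSPC, and 1 of 12 was called higher in MEG and 8 of 12 in ERY than in HSPC. The part of these cells in the immunoproteasome result was not tested, and in bulk samples fewer cells of a type and less RNA per cell cannot be told apart.

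The caps of the core divided by gene. Psme1 and Psme2 encode the interferon-inducible cap that works with the immunoproteasome, Psme3 a related nuclear cap, Psme4 a large nuclear cap linked to histone degradation in mouse testis, and Psmf1 a protein first described as a proteasome inhibitor. Psme4 was the only member called higher in both MEG and ERY than in HSPC, by 5.86-fold and 8.98-fold. Psme1 fell in both, by 3.11-fold in MEG and 4.98-fold in ERY. Psme2 fell 2.08-fold in ERY.

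Psme1 read 9.07, 9.47, 9.47 and 9.25 in MEG, 8.56, 8.78, 8.46 and 8.74 in ERY and 10.60, 11.13, 10.96 and 11.12 in HSPC. No 2 populations overlapped. The change was -1.63 ± 0.15 in MEG (adjusted p = 7.66e-06, limma) and -2.32 ± 0.15 in ERY against HSPC (adjusted p = 2.43e-07), and 0.68 ± 0.15 in MEG against ERY (adjusted p = 0.00465), short of 2-fold. Psme2 read 9.96, 10.90, 10.95 and 10.58 in MEG, 9.90, 10.27, 10.32 and 10.15 in ERY and 11.12, 11.19, 11.34 and 11.21 in HSPC. All arrays of both lineages lay below HSPC. The change was -0.62 ± 0.20 in MEG (adjusted p = 0.029, limma) and -1.06 ± 0.20 in ERY (adjusted p = 0.00113). Without ERY array 1 the ERY change was -0.97, without HSPC arrays 3 and 4 -0.99, on the ribosomal protein scale -0.69 and centred on genes above the median -0.86, all under the fold limit.

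Psme4 read 11.11, 10.53, 10.41 and 10.22 in MEG, 11.23, 11.29, 11.19 and 11.02 in ERY and 9.73, 8.54, 7.16 and 6.64 in HSPC. HSPC was lower on every array and spread over more than 3 log2 units, the largest SD of all members over the 12 arrays (1.62). The change was 2.55 ± 0.52 in MEG (adjusted p = 0.00205, limma) and 3.17 ± 0.52 in ERY against HSPC (adjusted p = 0.000405). Without HSPC arrays 3 and 4, its lowest, the changes were 1.43 and 2.05, and without HSPC arrays 1 and 2 they were 3.67 and 4.28. The call held in each case.

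Psme3 read 10.21, 11.33, 11.33 and 10.71 in MEG, 12.41, 12.48, 12.34 and 12.36 in ERY and 11.54, 11.67, 11.47 and 11.40 in HSPC. ERY lay above HSPC on every array and MEG below it. The change was -0.63 ± 0.22 in MEG against HSPC (adjusted p = 0.0405, limma) and 0.88 ± 0.22 in ERY against HSPC (adjusted p = 0.00689), neither above 2-fold, and -1.503 ± 0.22 in MEG against ERY (adjusted p = 0.000161). Psmf1 read 9.24, 9.93, 9.78 and 9.29 in MEG, 10.65, 10.42, 10.50 and 10.65 in ERY and 9.62, 10.32, 10.19 and 10.29 in HSPC. All ERY arrays were above all others. Psmf1 was 1.99-fold lower in MEG than in ERY (adjusted p = 0.00182, limma), the member nearest to the fold limit from below.

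**Figure D3:**
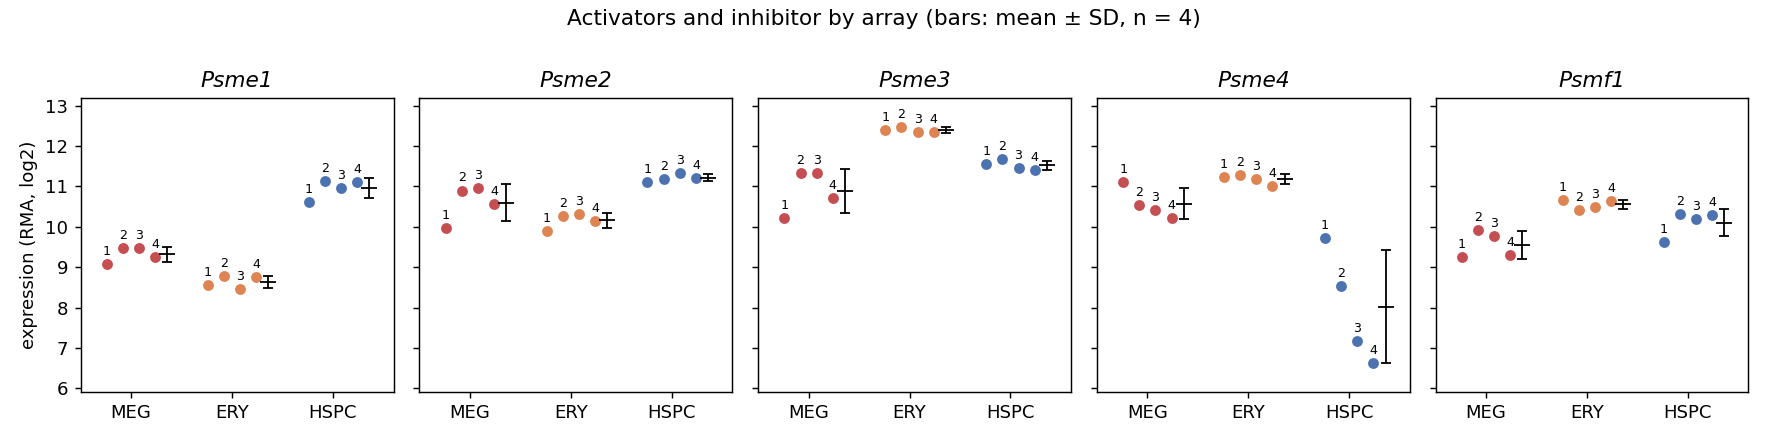
Expression (RMA, log2, y axis) of the cap genes Psme1 to Psme4 and of Psmf1 on each MEG, ERY and HSPC array; digits are replicate numbers and bars are mean ± SD, n = 4. Psme1 is highest in HSPC, Psme4 lowest there with array 4 at 6.64, and Psme3 is highest in ERY.

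No gene of the alpha and beta rings of the constitutive core was called in any comparison of the main fit. Psmb6 was called lower in MEG than in HSPC without HSPC array 1 or 2 or both, without MEG array 2 or 3, and with array weights. Psmb2 was called lower in MEG than in HSPC without HSPC array 1, without HSPC arrays 1 and 2, and with array weights. The alpha ring, which gates the core, had 8 genes with changes of -0.65 to 0.40 in MEG against HSPC, -0.79 to 0.51 in ERY against HSPC and -0.60 to 0.27 in MEG against ERY. By limma's adjusted p alone 3, 1 and 1 of the 8 were lower, against 20.7%, 20.1% and 13.1% of all genes. None was higher, against 13.2%, 12.6% and 12.7%. At an unadjusted p under 0.05 there were 3, 2 and 1 lower and 0, 1 and 0 higher. No share of all genes was taken at an unadjusted p, here or for the counts below. Psma8, a subunit known from mouse testis, read 5.30 to 5.91 in MEG and 5.28 to 5.56 in ERY, below the pooled median of all probe sets, and 6.04 to 6.49 in HSPC. Both lineages were below HSPC on every array (adjusted p = 0.00932 in MEG and 0.00265 in ERY, limma). All 7 genes of the beta ring were below 0 in MEG against HSPC, with a median of -0.55 and a range of -0.98 to -0.25, although on the ribosomal protein scale 5 of the 7 were. In ERY against HSPC 6 of 7 were below 0 on every scale tried, with a median of -0.54, and 5 of the 7 were lower by the adjusted p alone (6 at an unadjusted p under 0.05), against 20.1% of all genes by adjusted p. The size of these decreases depended on the HSPC arrays, since array 4 read above array 1 for 6 of the 7 (median difference 0.44). With single arrays left out, the change in ERY was -0.77 to -0.49 for Psmb6 and -0.64 to -0.44 for Psmb5. The beta ring median was -0.11 in MEG against ERY. Psmb2, a non-catalytic subunit, averaged 11.30 ± 0.11 in MEG, 11.44 ± 0.18 in ERY and 12.22 ± 0.18 in HSPC (SD, n = 4), a change of -0.93 in MEG (adjusted p = 0.000216, limma) and -0.78 in ERY (adjusted p = 0.000636). The spread between replicates was thus smaller than the change, which still fell short of 2-fold.

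The regulatory particle showed a different pattern, and much of it rested on the HSPC arrays. Its 6 ATPases form the ring that unfolds substrates. In ERY Psmc6 was 3.48-fold higher than in HSPC, and in MEG Psmc4 and Psmc5 were 2.43-fold and 2.02-fold lower. Of the 11 non-ATPase subunits, which bind ubiquitin chains and remove them, Psmd1 and Psmd12 were 2.81-fold and 2.11-fold higher in ERY than in HSPC, and Psmd3 was 2.16-fold lower in MEG than in HSPC. Between MEG and ERY all 6 ATPases were below 0, also on the other scales tried, with a median of -0.78 and a range of -1.11 to -0.63, but Psmc5 alone was called and 4 of the 6 were lower by the adjusted p alone, against 13.1% of all genes. The non-ATPase subunits had a median of -0.40 in MEG against ERY, 8 of 11 were below 0, and none passed limma's adjusted p (1 at an unadjusted p under 0.05). Much of the size of both shifts came from MEG arrays 1 and 4. The median level of the ATPases was 8.48, 9.56, 9.41 and 8.78 on the MEG arrays, against 9.67 to 9.90 on ERY. For the non-ATPase subunits it was 9.77, 10.17, 10.13 and 9.76, against 10.02 to 10.31 on ERY.

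Psmc6 read 9.32, 9.88, 9.80 and 9.03 in MEG, 10.27, 9.86, 10.33 and 10.07 in ERY and 9.90, 9.02, 7.58 and 6.84 in HSPC. Array 1 of HSPC lay within the ERY range and array 4 more than 3 log2 units below it. The change in ERY was 1.80 ± 0.52 (adjusted p = 0.0166, limma), and without HSPC arrays 3 and 4 it was 0.67 (adjusted p = 0.118). Psmd1, the scaffold of the regulatory particle's base, read 10.57, 11.82, 11.70 and 11.30 in MEG, 11.61, 11.65, 11.82 and 11.93 in ERY and 11.63, 10.66, 9.62 and 9.14 in HSPC. Its change in ERY was 1.49 ± 0.45 (adjusted p = 0.0208, limma), and 0.61 (adjusted p = 0.224) without HSPC arrays 3 and 4. Psmd12, a lid subunit, read 8.79, 9.84, 9.78 and 9.09 in MEG, 9.94, 9.82, 9.98 and 9.97 in ERY and 9.84, 9.38, 8.29 and 7.89 in HSPC. The same holds for its change of 1.07 ± 0.38 in ERY (adjusted p = 0.0451, limma), which was 0.32 (adjusted p = 0.416) without those arrays. Psmd14, the deubiquitinase of the lid, had the same order of HSPC arrays, 11.13, 10.43, 9.44 and 8.81, against 10.93 to 11.16 in ERY, and was not called. With HSPC arrays 3 and 4 left out, 1 member, Psme4, remained called higher in ERY than in HSPC. Without HSPC array 3 alone the count was also 1, and without HSPC array 4 alone it was 2.

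The decreases in MEG rested in part on MEG arrays 1 and 4, without which 5 members, not 9, were lower in MEG than in HSPC and 2, not 4, lower than in ERY. Psmc5 read 6.78, 8.71, 8.59 and 7.59 in MEG, 9.02, 8.99, 9.07 and 9.01 in ERY and 9.03, 8.90, 8.91 and 8.89 in HSPC. The 8 ERY and HSPC arrays lay within 0.2 log2 units, below which MEG arrays 2 and 3 fell slightly and arrays 1 and 4 widely. The change was -1.02 ± 0.33 in MEG against HSPC (adjusted p = 0.0317, limma) and -1.11 ± 0.33 in MEG against ERY (adjusted p = 0.0253), and -0.29 and -0.38 without MEG arrays 1 and 4. These calls were the least stable, holding under 13 and 16 of the 26 alternatives, and both were lost without MEG array 1 (-0.64 and -0.73), without MEG array 4, with array weights and when only the 8 arrays compared were fitted. The call against HSPC was also lost without any single HSPC array, and that against ERY without any single ERY array. Psmc4 read 8.56, 9.85, 9.79 and 9.15 in MEG, 9.99, 10.03, 10.19 and 10.36 in ERY and 10.29, 10.63, 10.78 and 10.76 in HSPC. MEG lay below both other populations on every array. Its change in MEG against HSPC was -1.28 ± 0.25 (adjusted p = 0.0017, limma), and -0.80 without MEG arrays 1 and 4. Psmd3, another lid subunit, read 8.68, 9.50, 9.49 and 8.80 in MEG, 9.47, 9.48, 9.76 and 9.92 in ERY and 9.70, 10.21, 10.46 and 10.56 in HSPC. Its change was -1.11 ± 0.24 in MEG against HSPC (adjusted p = 0.00291, limma), and -0.73 without those arrays, -0.97 without MEG array 1 and -0.83 without HSPC arrays 3 and 4, each under the fold limit.

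At the other end stood Psmd2, a base subunit that binds shuttle proteins. It read 10.95, 11.26, 11.23 and 10.97 in MEG, 11.17, 11.19, 11.32 and 11.35 in ERY and 11.25, 11.28, 11.19 and 11.18 in HSPC. Its SD over the 12 arrays was 0.12, the second smallest of the members.

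**Figure D4:**
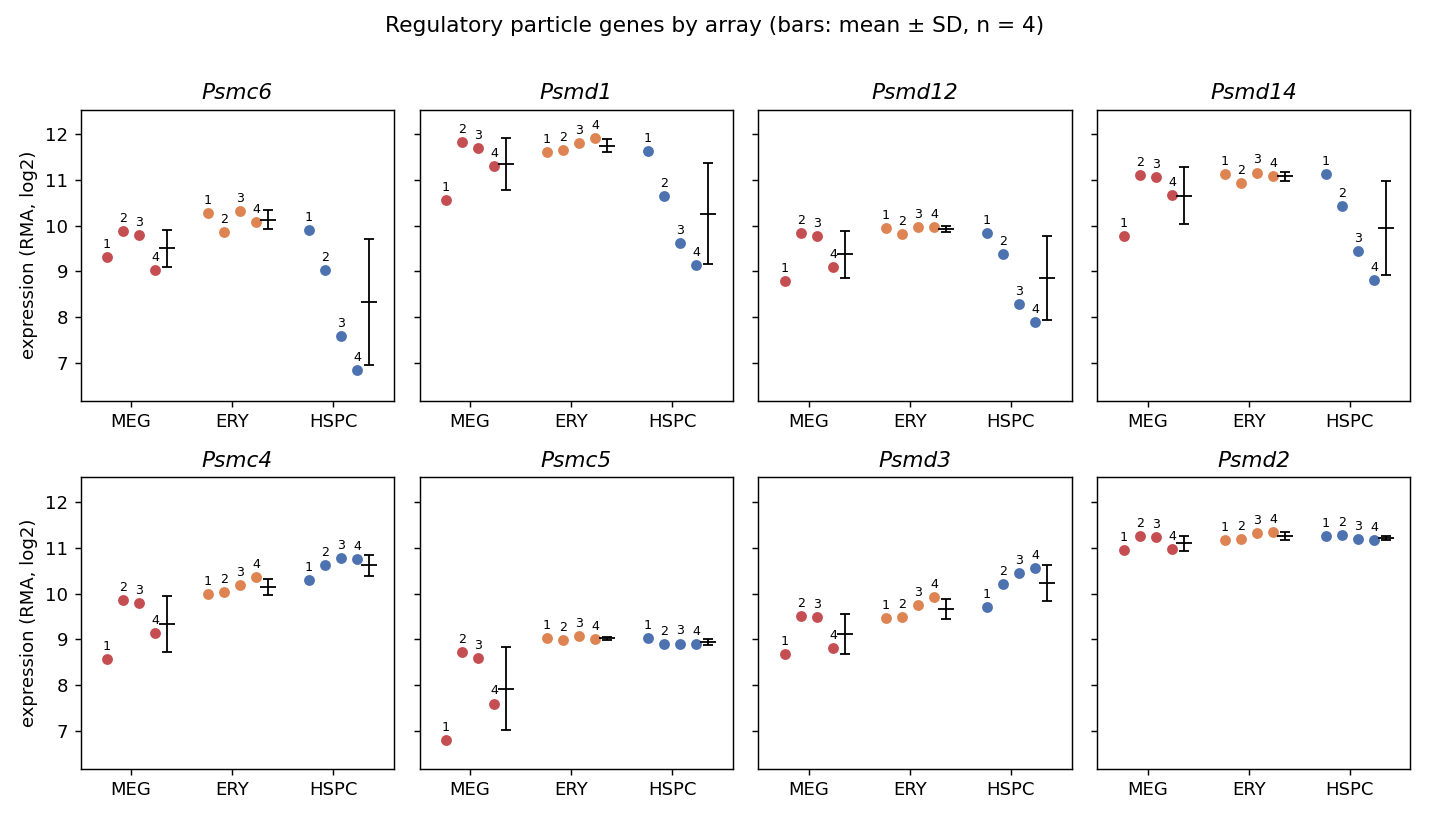
Expression (RMA, log2, y axis) of 8 regulatory particle genes on each MEG, ERY and HSPC array; digits are replicate numbers and bars are mean ± SD, n = 4. In the upper row HSPC array 4 is the lowest of the HSPC arrays, at 6.84 for Psmc6, while in the lower row MEG array 1 is the lowest MEG array and Psmd2 stays between 10.95 and 11.35.

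The assembly chaperones, which hold partly built particles and leave the finished proteasome, split in ERY. Psmg1 and Psmg4, of the chaperones that build the core, were 3.84-fold and 2.83-fold lower in ERY than in HSPC, while Psmd5 and Psmd10, of those that build the base of the regulatory particle, were 2.08-fold and 2.01-fold higher. In MEG Psmg4 and Psmg1 were 3.53-fold and 2.24-fold lower than in HSPC, and no chaperone was higher. Psmd5 was 2.24-fold lower in MEG than in ERY. By adjusted p alone 5 of the 7 chaperones were lower in MEG than in HSPC, since Psmg2, Psmg3 and Psmd9, at -0.78, -0.70 and -0.85, passed it without reaching 2-fold, against 20.7% of all genes.

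Psmg4 read 7.57, 8.70, 8.53 and 7.96 in MEG, 8.48, 8.30, 8.58 and 8.67 in ERY and 9.74, 10.00, 10.10 and 10.19 in HSPC. HSPC lay above both lineages by more than 1 log2 unit on every array. The change was -1.82 ± 0.22 in MEG (adjusted p = 6.24e-05, limma) and -1.501 ± 0.22 in ERY against HSPC (adjusted p = 0.000199). Psmg1 read 7.57, 9.03, 8.84 and 8.38 in MEG, 7.80, 7.11, 7.80 and 8.002 in ERY and 9.34, 9.45, 9.87 and 9.82 in HSPC. MEG and ERY both lay below HSPC and overlapped each other. The change was -1.94 ± 0.30 in ERY (adjusted p = 0.000243, limma) and -1.16 ± 0.30 in MEG (adjusted p = 0.00857). Without MEG arrays 1 and 4 its MEG change was -0.68 (adjusted p = 0.0679, limma) and without HSPC arrays 3 and 4 it was -0.94 (adjusted p = 0.0971), neither of which passed, and without MEG array 1 it was -0.87, under the fold limit.

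Psmd5 read 8.998, 9.70, 9.67 and 8.81 in MEG, 10.61, 10.39, 10.45 and 10.39 in ERY and 9.73, 9.69, 9.23 and 8.98 in HSPC. ERY was above all other arrays. The change was 1.05 ± 0.23 in ERY against HSPC (adjusted p = 0.00295, limma) and -1.17 ± 0.23 in MEG against ERY (adjusted p = 0.00172). The second fell short of 2-fold without MEG arrays 1 and 4 (-0.78) and with array weights (-0.79). Psmd10 read 9.06, 9.86, 9.74 and 9.24 in MEG, 10.28, 10.11, 10.28 and 10.29 in ERY and 9.57, 9.42, 9.09 and 8.87 in HSPC, and again all ERY arrays were highest. Its change in ERY against HSPC was 1.01 ± 0.20 (adjusted p = 0.00168, limma). Without HSPC arrays 3 and 4 the ERY changes of Psmd5 and Psmd10 were 0.75 and 0.75, under the fold limit, with adjusted p = 0.0438 and 0.0256 (limma). Both also fell short of 2-fold without HSPC array 3 or 4 alone. Psmd10, so near the limit, held its call under 19 of the 26 alternatives and lost it as well without ERY array 1, 3 or 4 (0.99 each) and with quantile normalization (0.99).

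**Figure D5:**
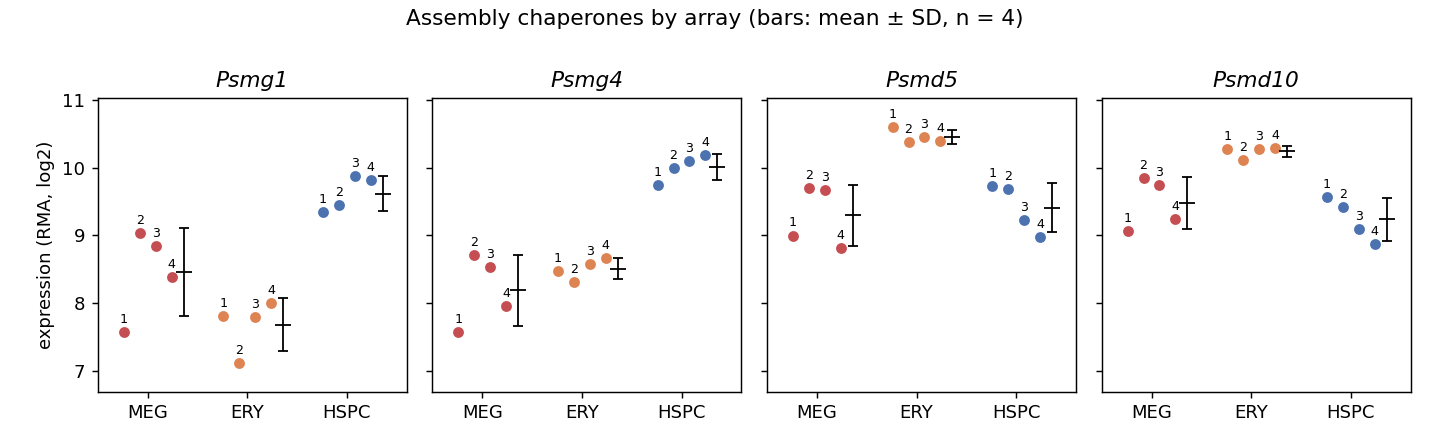
Expression (RMA, log2, y axis) of the assembly chaperones Psmg1, Psmg4, Psmd5 and Psmd10 on each MEG, ERY and HSPC array; digits are replicate numbers and bars are mean ± SD, n = 4. HSPC is highest for Psmg1 and Psmg4, and ERY is highest for Psmd5 and Psmd10, with all 4 ERY arrays at 10.11 or more.

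The 2 genes caught by their symbols behaved unlike each other. Psmc3ip, which acts in recombination of meiotic chromosomes, read 6.34, 6.55, 6.72 and 6.43 in MEG, 7.87, 7.52, 7.52 and 7.70 in ERY and 7.67, 7.78, 7.57 and 7.88 in HSPC. It was 2.32-fold lower in MEG than in HSPC (adjusted p = 2.57e-05, limma) and 2.21-fold lower than in ERY (adjusted p = 2.69e-05). On the ribosomal protein scale the change against HSPC was -0.73, under the fold limit. Psme3ip1, whose product binds Psme3, lay between 8.82 and 9.15 on all 12 arrays, with the smallest SD of the members (0.11).

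Genes that work with the proteasome were taken from 3 further lists. Of 17 partners measured, such as shuttle receptors, deubiquitinases and regulators, MEG had 3 called above HSPC and 2 below, ERY had 5 above HSPC and 1 below, and MEG had 2 above ERY and 2 below. Over all genes the shares were, as above, 8.77% and 11.4%, 8.35% and 12.3%, and 8.75% and 7.77%, and they are the background for the lists that follow too. Zfand5, which binds the proteasome and promotes degradation, averaged 11.33 ± 0.22 in MEG, 9.95 ± 0.09 in ERY and 8.62 ± 0.97 in HSPC (SD, n = 4), a 6.52-fold increase in MEG over HSPC (adjusted p = 0.000112, limma). Nfe2l2, the transcription factor of the oxidative stress response, averaged 11.62 ± 0.27 in MEG, 10.18 ± 0.11 in ERY and 9.23 ± 0.96 in HSPC, 5.22-fold higher in MEG than in HSPC (adjusted p = 0.000297, limma). Both had their lowest values on HSPC arrays 3 and 4, without which the increases in MEG were 3.74-fold for Zfand5 and 2.998-fold for Nfe2l2 and still called, while the call of Zfand5 in ERY against HSPC was lost. Without those arrays Usp14, Ngly1 and Ubqln4 in ERY, and Ngly1 and Pomp in MEG, also lost their calls against HSPC. Fbxo7, an F-box protein that binds Psmf1, averaged 7.999 ± 0.23 in MEG, 10.63 ± 0.10 in ERY and 8.89 ± 0.20 in HSPC. It was 6.22-fold lower in MEG than in ERY (adjusted p = 2.75e-08, limma). Ublcp1, a phosphatase of the nuclear proteasome, averaged 3.75 ± 0.85 in MEG, 6.21 ± 0.84 in ERY and 3.34 ± 0.37 in HSPC, and lay below the median of all probe sets on every MEG and HSPC array and on 2 of 4 ERY arrays.

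Of 5 ubiquitin, E1 and segregase genes measured, Faf1 alone was called, 2.11-fold higher in ERY than in HSPC (adjusted p = 0.00564, limma) and 2.21-fold lower in MEG than in ERY (adjusted p = 0.00477). Without HSPC arrays 3 and 4 its change in ERY against HSPC was 0.65 and did not pass (adjusted p = 0.0721, limma). Of 13 genes for class I antigen processing and interferon factors, 2 were lower in MEG than in HSPC, 4 were lower in ERY than in HSPC and 3 were higher in MEG than in ERY, and in this last comparison all 13 had a change above 0 (12 when centred on genes above the median). Irf1, an interferon regulatory factor, averaged 7.27 ± 0.64 in MEG, 5.75 ± 0.33 in ERY and 8.75 ± 0.29 in HSPC, and fell by 2.999 log2 units in ERY against HSPC (adjusted p = 5.64e-06, limma). Irf8, which drives myeloid fate, averaged 8.52 ± 0.69 in MEG, 7.91 ± 0.32 in ERY and 10.69 ± 0.12 in HSPC, and fell by 2.17 in MEG (adjusted p = 0.000103, limma) and by 2.78 in ERY against HSPC (adjusted p = 1.03e-05). Tap1, the peptide transporter subunit encoded between Psmb9 and Psmb8, averaged 8.42 ± 0.37 in MEG, 6.14 ± 0.11 in ERY and 8.03 ± 0.63 in HSPC. It was 4.85-fold higher in MEG than in ERY (adjusted p = 3.59e-05, limma) and did not pass in MEG against HSPC, as Psmb9 did not.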

How the data were processed

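The authors measured mRNA on GeneChip Mouse Gene ST arrays and deposited 1 log2 expression value per probe set and array, made by RMA, with version and settings not given in the sources used. RMA corrects the background, equalizes the arrays and summarizes probes, which can compress small changes and gives no detection call; the number of arrays limits the precision. Of the 34760 probe sets, 21640 carry 1 symbol in the platform annotation, 1321 carry several and 11799 are not listed there. Where a gene had several probe sets, the one with the highest mean over the 12 arrays was used; 5 members had more than 1. Nothing was filtered on level, and 2 members, Psma8 and Psmb11, had means under the median of all probe sets.

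One limma fit (version 3.58.1, R 4.3.3) over the 12 arrays and 19937 genes gave the 3 contrasts, with Benjamini-Hochberg adjustment over all genes. The groups followed the sample titles. The script was tested on simulated data. Of 12 pairs of arrays with the same replicate number, 4 had deviations correlated above 0.1, over a range of -0.41 to 0.33. These correlations were not set against pairs of different number, so they cannot settle whether the numbers pair the arrays. The main fit treated the arrays as unpaired. No 2 arrays were duplicates: the highest correlation between arrays was 0.993.

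The members and gene lists were chosen with earlier results of these data known. Values on every array are given for up to 8 members with the largest increase and up to 8 with the largest decrease among those called in each comparison, for the catalytic subunits, caps and inhibitor, and for the 3 members with the smallest and the 3 with the largest SD; other members are counted by role, and 3 genes per comparison were named from the outside lists. Psmd14, Psma8 and Faf1 were added after their values were seen. Psmb2, Psmg2, Psmg3 and Psmd9 are also named outside this rule, as are Usp14, Ngly1, Ubqln4 and Pomp from the outside lists. Psme3ip1 is given as a range only. Promoter sequences are from RefSeq, build GRCm38.p6, with the outer of 2 listed starts for Psme2; no window was used for Psma8, Psmb1, Psmb2, Psmb7, Psmc3, Psmd3, Psmd7 and Psmg2. Alternatives were fits on 8 arrays, a replicate block, leaving out arrays, a filter on level, other normalization, scaling and variance settings, array weights, the mean over probe sets and other thresholds. Chromatin measurements from the same study were left out.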

Additional observations from a re-analysis of the deposited data

Results flagged for a closer look

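In 3 of 75 sets of 4 arrays of a named member, 1 array stood far from the others, its gap to the nearest exceeding Dixon's critical share of the range; chance alone gives about 1 in 20 sets. Psmb9 read 7.55 on ERY array 2, against 6.94 to 7.04 on the other ERY arrays, and stayed below all MEG and HSPC arrays. Psmd10 read 10.11 on ERY array 2, against 10.28 to 10.29 on the others. Psmc5 read 9.03 on HSPC array 1, against 8.89 to 8.91 on the others, a gap that is small because the HSPC arrays lay so close.

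Psme3 was set apart because its changes in the 2 lineages opposed each other and both passed the adjusted p: -0.63 in MEG and 0.88 in ERY against the same HSPC arrays, with a difference of -1.503 (MEG minus ERY, adjusted p = 0.000161, limma).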

How the results depend on the processing

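Under the 26 alternatives, none of the 29 called changes turned direction, and 16 passed the threshold under every one: Psmb8 and Psmb9 wherever called, Psmb10, Psme1, Psme4 and Psmg4 in both lineages against HSPC, Psmg1 in ERY against HSPC, and Psme3 and Psmc3ip in MEG against ERY. Members without a call were followed one by one only if they were catalytic subunits, caps or the inhibitor. Among these, the change of Psmb5 in MEG against ERY, -0.02, turned sign. It was 0.056 with quantile normalization, 0.10 on the ribosomal protein scale, 0.34 with array weights and 0.33 without MEG arrays 1 and 4. With single arrays left out it was -0.16 to 0.14, being 0.01, 0.14 and 0.05 without ERY array 4, MEG array 1 and MEG array 4. On the ribosomal protein scale Psmb7 (0.022) and Psmb9 (0.14) turned sign in MEG against HSPC. On that scale 5 of the 8 alpha ring genes were above 0 in MEG against HSPC. The same count held in ERY against HSPC, where the main fit had 2 in each comparison.

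Members higher in MEG than in HSPC numbered 1, and 6 on the ribosomal protein scale, 3 centred on genes above the median, 7 with array weights, 6 without HSPC arrays 1 and 2, and 2 with the adjusted p alone or a 1.5-fold limit. Members lower in MEG than in HSPC numbered 9, and 4 on the ribosomal protein scale (Psmc3ip, Psmc4, Psmc5, Psmd3 and Psmg1 lost), 21 with the adjusted p alone, 18 with a 1.5-fold limit and 5 without MEG arrays 1 and 4, an alternative added after the data were seen. Members higher in ERY than in HSPC numbered 6, and 10 on the ribosomal protein scale, centred on genes above the median or with array weights, and 1 without HSPC arrays 3 and 4. Members lower in ERY numbered 7, and 15 with the adjusted p alone and 11 with a 1.5-fold limit. In MEG against ERY the counts were 2 higher and 4 lower, and 4 and 2 with array weights or without MEG arrays 1 and 4, with 13 lower by the adjusted p alone or a 1.5-fold limit. The cause was not tested.

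With single arrays left out, the counts ranged from 1 to 4 higher and 6 to 11 lower in MEG against HSPC, 1 to 9 higher and 6 to 7 lower in ERY against HSPC, and 2 to 4 higher and 3 to 6 lower in MEG against ERY. Without HSPC array 3 only 1 member was higher in ERY, without HSPC array 4 there were 2 and without ERY array 4 there were 3. Without HSPC array 1 there were 4 higher in MEG than in HSPC. Without MEG array 1 there were 2 higher in MEG than in HSPC and 4 higher in MEG than in ERY. The members' medians ranged from -0.48 to -0.32, -0.07 to -0.01 and -0.36 to -0.12. With array weights they were -0.19, 0.02 and -0.02, a move within the spread of replicates. They moved beyond the spread of replicates to 0.085 (MEG against HSPC) and 0.32 (ERY against HSPC) on the ribosomal protein scale, to 0.15 (ERY against HSPC) centred on genes above the median, and to -0.0014 (MEG against ERY) without MEG arrays 1 and 4.

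With the replicate number as a block, the counts were 1 higher and 9 lower in MEG against HSPC, 5 higher and 7 lower in ERY against HSPC, and 2 higher and 4 lower in MEG against ERY. Only Psmd12 lost its call, and whether the numbers pair the arrays is not known. The array weights stopped short of full convergence.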
